A study of Paramacrobiotus metropolitanus with 7 samples.

Results

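The 10 transcripts described here belong to the AMNP family, the tardigrade-specific manganese-dependent peroxidases, in Paramacrobiotus metropolitanus. They are 10 of the 36 AMNP transcripts in the study's annotation and 10 of the 26306 transcripts in the deposited expression matrix. They were chosen by name as AMNP transcripts that were not paired with a neighbouring locus among those listed, with the male and female values of the same libraries already known, so the difference between the sexes is given below as a description and supports nothing. RNA was taken from whole bodies of males (4 libraries) and females (3 libraries) of the TYO strain, with no treatment given in the labels, and the design compares the sexes. Each library came from a tube of many pooled specimens that had been reared apart and sexed once their sexual organs had developed, so the spread between libraries is a spread between pools, and where a pool came from a separate culture is not stated.

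AMNP proteins were first characterised in the tardigrade Ramazzottius varieornatus, where a secretory-pathway protein that binds manganese was found to have peroxidase activity. They are known for a link with anhydrobiosis, the state in which a tardigrade survives drying, because drying exposes cells to reactive oxygen species and peroxidases remove peroxides. No separate role is known for any single member in P. metropolitanus, so the members are described in order of their values and not by function.

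The 10 had been described as lying at single loci, which held only in part. Of the 10 transcripts, 4 had another AMNP transcript at the next locus number (PARRI_0005340.t1, PARRI_0007608.t1, PARRI_0012347.t1 and PARRI_0016101.t1), and PARRI_0004127.t1 had PARRI_0004129.t1 at a distance of 2 numbers. The other 5 had none within 2 locus numbers. The nearest AMNP number was 7 away for PARRI_0009335.t1, 174 for PARRI_0005516.t1, 241 for PARRI_0014150.t1, 260 for PARRI_0017610.t1 and 811 for PARRI_0002748.t1. Locus numbers are used as the identifiers give them, without a position on a scaffold. Reads of similar AMNP copies may have been divided between them by the authors' quantification, which was not tested.

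Values are TPM, a transcript level corrected for transcript length and library size, which the authors rescaled between libraries by the TMM method. The libraries summed to between 891117 and 1127677, and the read depth is not kept in these values. The sex labels were checked on 2 DMRT transcripts that the study had picked as male-biased in these libraries. PARRI_0003090.t1 lay between 15.4 and 73.4 TPM in males and between 0.163 and 1.16 TPM in females, and PARRI_0003093.t1 lay between 2.49 and 10.8 TPM in males and was at 0 in every female library. Over the 10677 tested transcripts averaging 10 TPM or more, the SD of the log2 difference between 2 libraries was between 0.819 and 1.23 for pairs of males and between 1.09 and 1.65 for pairs of females, with female libraries 1 and 3 farthest apart. Each library is bulk RNA of whole animals, in which fewer cells of a type and less RNA per cell cannot be told apart.

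The levels of the 10 transcripts spanned 243-fold between the highest and the lowest mean in males and 213-fold in females. PARRI_0009335.t1 was the most abundant in both sexes, averaging 957 TPM in the 4 male libraries (SD 350.3) and 452 TPM in the 3 female libraries (SD 50.2). PARRI_0014150.t1 followed in both sexes, and PARRI_0005516.t1 was the least abundant, averaging 3.94 TPM in the male libraries (SD 1.65) and 2.12 TPM in the female libraries (SD 0.782). In males, the order below PARRI_0014150.t1 was PARRI_0005340.t1, PARRI_0004127.t1, PARRI_0007608.t1, PARRI_0012347.t1, PARRI_0016101.t1, PARRI_0002748.t1 and PARRI_0017610.t1. In females the order was the same except that PARRI_0004127.t1 (211 TPM) stood just above PARRI_0005340.t1 (208 TPM). Of the 9 pairs of neighbours in the order, 3 overlapped between libraries in males, namely PARRI_0005340.t1 with PARRI_0004127.t1, PARRI_0007608.t1 with PARRI_0012347.t1, and PARRI_0016101.t1 with PARRI_0002748.t1. In females 6 of the 9 overlapped, and the order was set apart only between PARRI_0009335.t1 and PARRI_0014150.t1, between PARRI_0002748.t1 and PARRI_0017610.t1, and between PARRI_0017610.t1 and PARRI_0005516.t1.

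**Figure D1:**
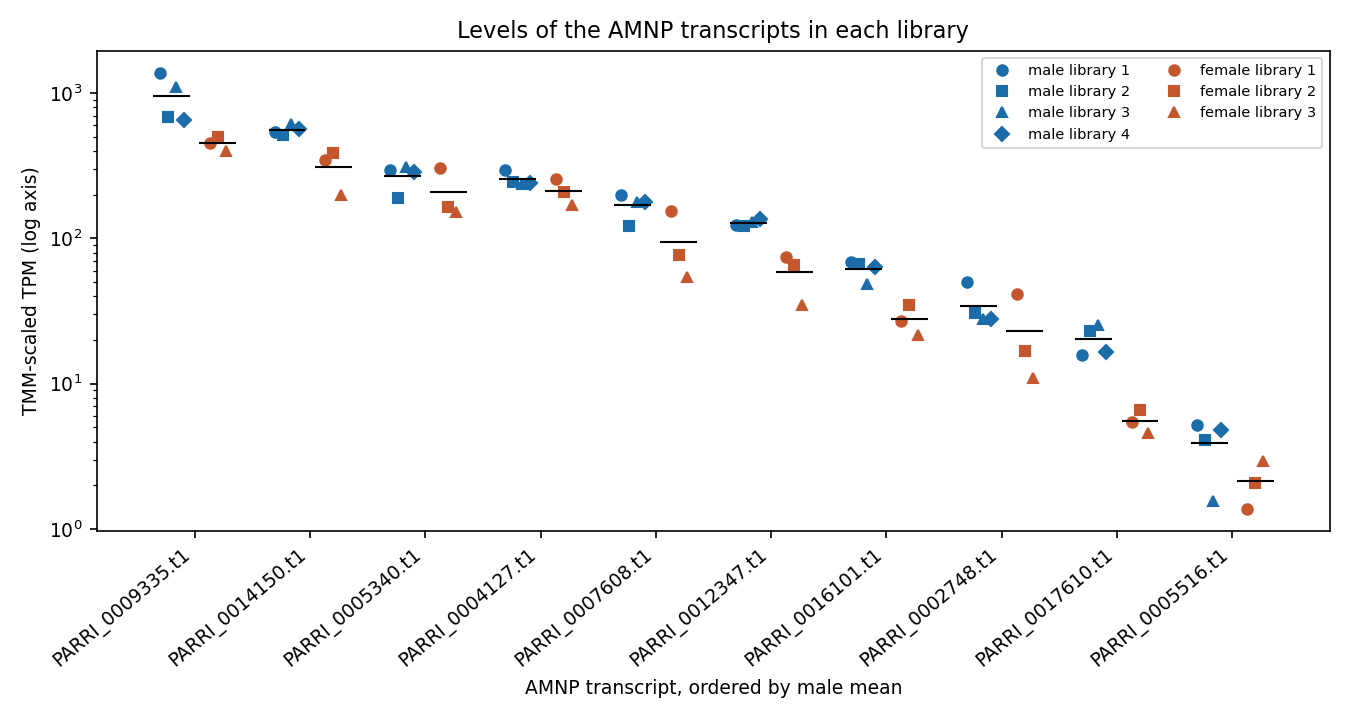
TMM-scaled TPM of each of the 10 AMNP transcripts in each male library (blue, left of each pair) and each female library (orange, right), on a log axis, with a black bar at the mean of the sex. Means run down from 957 TPM to 3.94 TPM in males, and in 5 transcripts (PARRI_0009335.t1, PARRI_0014150.t1, PARRI_0012347.t1, PARRI_0016101.t1 and PARRI_0017610.t1) every male library lies above every female library. The same held for 28.1% of all 18420 tested transcripts, and the 10 were listed with this contrast known.

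Together the 10 transcripts held 0.264%, 0.225%, 0.247% and 0.241% of the summed signal of male libraries 1 to 4, against 0.183%, 0.143% and 0.0969% in female libraries 1 to 3. These shares did not overlap between the sexes. The 10 were listed with that contrast known, and no background of sums over other lists is given, so nothing is read from this. Among single tested transcripts, 28.1% had every male library above every female library. The whole AMNP family held between 1.28% and 1.87% of the signal in males and between 0.680% and 1.76% in females, so that the family total overlapped. The 10 transcripts thus held between 12.9% and 19.2% of the AMNP signal in males and between 10.4% and 15.7% in females, again with overlap. PARRI_0009335.t1 and PARRI_0014150.t1 made up between 56.3% and 64.5% of the signal of the 10 in males and between 48.1% and 60.7% in females. Neither of these overlapped between the sexes by itself, so the separation of the sum in part restates theirs.

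PARRI_0017610.t1 had the largest ratio of sex means among the 10. It had 15.7, 23.2, 25.3 and 16.6 TPM in male libraries 1 to 4, against 5.46, 6.58 and 4.58 TPM in female libraries 1 to 3. The lowest male library was 2.39-fold above the highest female library, the widest gap among the 10. The log2 difference, male minus female on log2(TPM + 0.1), was 1.83 (standard error 0.31, 95% interval 1.13 to 2.53). The transcript rested on few reads, a mean of 93.2 DESeq2-normalized counts in males and 27.2 in females. Counts of that size alone carry a counting SD of 10.4% in males and 19.2% in females.

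PARRI_0016101.t1 had 68.6, 66.5, 48.4 and 63.6 TPM in male libraries 1 to 4, against 27.1, 34.8 and 21.5 TPM in female libraries 1 to 3. The sexes were set apart by a factor of 1.39 between the lowest male and the highest female library. Its log2 difference was 1.16 (standard error 0.26, 95% interval 0.57 to 1.75).

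PARRI_0012347.t1 was the steadiest of the 10 among males. It had 124, 123, 129 and 135 TPM in male libraries 1 to 4, against 74.5, 65.7 and 34.7 TPM in female libraries 1 to 3. The highest male library was 1.11-fold above the lowest, whereas the highest female library was 2.14-fold above the lowest, female library 3 being the low one. The log2 difference was 1.20 (standard error 0.29, 95% interval 0.53 to 1.88), and the male mean was 1.72-fold, 1.94-fold and 3.68-fold above female libraries 1 to 3. Its SD on the log2 scale was 0.065 among males and 0.589 among females. The standard error and interval take a common spread for both sexes, so they may be too narrow for this transcript.

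PARRI_0014150.t1 was likewise even in males. It had 537, 519, 613 and 569 TPM in male libraries 1 to 4, against 349, 386 and 201 TPM in female libraries 1 to 3, and female library 3 was again the low one. The lowest male library was 1.34-fold above the highest female library, and the log2 difference was 0.89 (standard error 0.29, 95% interval 0.23 to 1.56). Its SD on the log2 scale was 0.106 among males and 0.509 among females, so this interval may also be too narrow. This locus has a second annotated transcript, PARRI_0014150.t2, with 115, 94.1, 78.5 and 63.2 TPM in male libraries 1 to 4, against 60.4, 53.8 and 36.8 TPM in female libraries 1 to 3. The share of PARRI_0014150.t1 in the sum of both was 86.4% ± 3.54 (SD, n = 4) in males and 85.8% ± 1.72 (SD, n = 3) in females, a difference within the spread between libraries. Among males the share was lowest in library 1, at 82.4%, and highest in library 4, at 90.0%. With the 2 transcripts summed, the log2 difference of the locus was 0.89.

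PARRI_0009335.t1 was uneven in males and even in females, the reverse of PARRI_0012347.t1 and PARRI_0014150.t1. It had 1386, 686, 1099.8 and 657 TPM in male libraries 1 to 4, against 455, 501 and 400.3 TPM in female libraries 1 to 3. Male libraries 1 and 3 were the high ones, and the lowest male library was 1.31-fold above the highest female library. The log2 difference was 1.02 (standard error 0.34, 95% interval 0.24 to 1.79). Its SD on the log2 scale was 0.526 in males and 0.162 in females, the smallest female value among the 10. PARRI_0003560.t1, an AMNP transcript at another locus number, was high in the same male libraries, with 792, 449, 820 and 410 TPM in male libraries 1 to 4, against 235, 318 and 230 TPM in female libraries 1 to 3. It is shown as the AMNP transcript with the profile nearest to PARRI_0009335.t1, so this likeness follows from the choice.

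In the other 5 transcripts the sexes overlapped. PARRI_0007608.t1 came closest to separation, with male libraries above female libraries in 11 of the 12 pairs of libraries. It had 200.005, 122, 177 and 178 TPM in male libraries 1 to 4, against 154, 76.8 and 54.4 TPM in female libraries 1 to 3. Only male library 2 lay below female library 1. The log2 difference was 0.95 (standard error 0.37, 95% interval 0.10 to 1.80), and the male mean was 1.10-fold, 2.21-fold and 3.12-fold above female libraries 1 to 3.

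PARRI_0002748.t1 had 50.0, 30.7, 28.1 and 28.1 TPM in male libraries 1 to 4, against 41.7, 16.7 and 11.013 TPM in female libraries 1 to 3. Library 1 was high in each sex, and female library 1 lay above 3 of the 4 male libraries. Female library 1 was 3.78-fold above female library 3, the widest spread of females among the 10. The log2 difference was 0.75 (standard error 0.46, 95% interval -0.31 to 1.80).

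PARRI_0005340.t1 had 297, 188, 312 and 285 TPM in male libraries 1 to 4, against 307, 165 and 151 TPM in female libraries 1 to 3. Female library 1 lay among the high male libraries, and male library 2 lay near the other female libraries. The log2 difference was 0.43 (standard error 0.33, 95% interval -0.32 to 1.18). PARRI_0004127.t1 had 297, 246, 238 and 239 TPM in male libraries 1 to 4, against 256, 207 and 171 TPM in female libraries 1 to 3. It had the smallest ratio of sex means among the 10, 1.21, with a log2 difference of 0.29 (standard error 0.24, 95% interval -0.26 to 0.83). For both transcripts these intervals reach from below 0 to a difference of more than the median of all transcripts, so neither equality nor a difference of that size is shown.

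PARRI_0005516.t1 had 5.22, 4.13, 1.56 and 4.84 TPM in male libraries 1 to 4, against 1.37, 2.07 and 2.93 TPM in female libraries 1 to 3. Male library 3 lay within the female range. The log2 difference was 0.79 (standard error 0.54, 95% interval -0.45 to 2.03), but -0.27 after quantile normalization, which gives all libraries the same distribution of values. It rested on the fewest reads of the 10, with a mean of 17.8 DESeq2-normalized counts in males and 10.8 in females. Counts of that size alone carry a counting SD of 23.7% in males and 30.4% in females, and the interval of the difference includes 0.

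**Figure D2:**
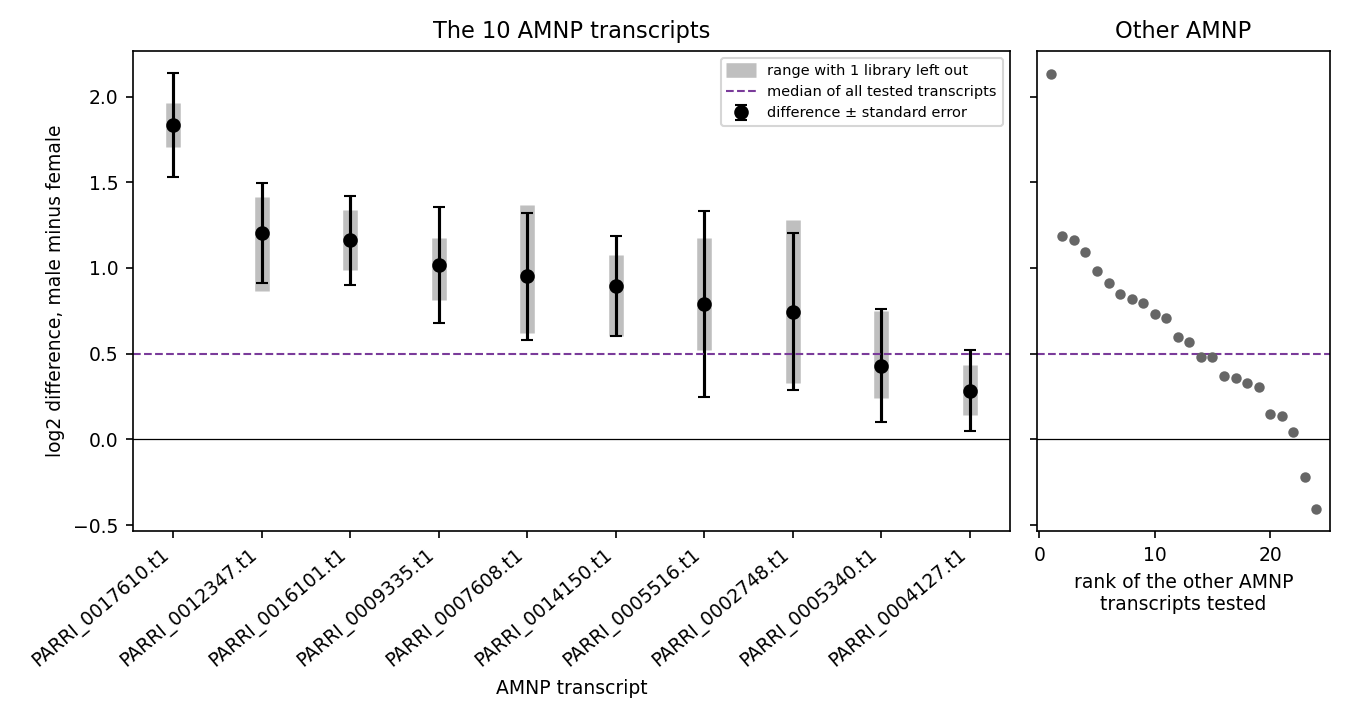
Log2 difference, male minus female on log2(TPM + 0.1), with its standard error (bars) and the range with each library left out in turn (grey), for the 10 AMNP transcripts (left) and as points for the 24 other AMNP transcripts tested, ranked by value (right). The dashed line is the median of all 18420 tested transcripts, 0.50, above which 8 of the 10 lie, PARRI_0005340.t1 (0.43) and PARRI_0004127.t1 (0.29) being below it.

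The differences were read from a limma fit of all 18420 transcripts with at least 1 TPM in at least 3 of the 7 libraries. All 10 had a positive difference there, PARRI_0005516.t1 turning negative under quantile normalization, and their median was 0.92. Over all tested transcripts the median was 0.50 rather than 0, and 58.9% were positive. It was 0.01 after quantile normalization and 0.03 where only transcripts averaging 5 TPM or more were kept. Relative to the median of all, the median of the 10 was 0.43 as deposited, 0.92 after quantile normalization and 0.92 for the 9 that averaged 5 TPM or more. At an FDR (Benjamini-Hochberg) of 0.05, 5 of the 10 were called, all higher in males, against 25.3% of all tested transcripts called higher in males and 49.3% called in either direction. They were PARRI_0017610.t1, PARRI_0016101.t1, PARRI_0012347.t1, PARRI_0014150.t1 and PARRI_0009335.t1. None of the 10 was called lower in males by limma. At an unadjusted limma p below 0.05 the numbers were 6 higher and 0 lower. The share of all tested transcripts at that unadjusted threshold is not given. It is at least the 25.3% called higher in males, since each of those also has an unadjusted p below 0.05. Under quantile normalization 4 of the 10 were called higher in males, against 18.8% of all tested transcripts. The same 5 transcripts were those with every male library above every female library, which held for 28.1% of all tested transcripts. Since the contrast had been seen when the 10 were listed, nothing is read from these counts.

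Among the 24 other AMNP transcripts tested, the median log2 difference was 0.58, 22 were above 0 and 13 lay above the median of all. Of these 24, limma called 3 higher in males (PARRI_0003560.t1, PARRI_0013908.t1 and PARRI_0013909.t1), against 25.3% of all tested transcripts, and 0 lower. At an unadjusted limma p below 0.05 the numbers were 8 and 0, where at least 25.3% of all tested transcripts were higher in males. In 6 of the 24 every male library lay above every female library, against 28.1% of all tested transcripts. The number of the 24 called was 10, all higher in males, without female replicate 1, where 30.8% of all tested transcripts were called higher in males. It was 0 without male replicate 1, where 17.1% were. At an unadjusted limma p below 0.05, 3 of the 24 were higher in males there, against at least 17.1% of all tested transcripts. Among the 10, PARRI_0017610.t1, PARRI_0016101.t1 and PARRI_0012347.t1 were called in all 7 fits with a library left out. How many of all tested transcripts were called in all 7 is not given. These fits also take a common spread for both sexes, which PARRI_0012347.t1 did not have. PARRI_0009335.t1 was called in 2 of the 7, without male replicate 2 or male replicate 4, and its log2 difference lay between 0.81 and 1.17. PARRI_0014150.t1 was called in 2 of the 7, without female replicate 1 or female replicate 2, with a log2 difference between 0.60 and 1.08. PARRI_0007608.t1 (1.37) and PARRI_0002748.t1 (1.28) were called in 1 of the 7, without female replicate 1. The number of the 10 called was 6 without female replicate 1 and 3 without female replicate 3, male replicate 1 or male replicate 3, where 17.2%, 17.1% and 19.0% of all tested transcripts were called higher in males.

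The females were not alike. Female library 3 was the lowest female library in 9 of the 10 transcripts, PARRI_0005516.t1 being the exception, and in 19 of the 24 other AMNP transcripts, against 34.3% of all tested transcripts. Female library 1 was above female library 3 in the same 9 of the 10 and in 20 of the 24, against 40.9% of all tested transcripts. The median log2 difference between them, library 1 minus library 3, was 0.69 for the 10 and 1.03 for the 24, against -0.29 for all tested transcripts and -0.53 for those averaging 5 TPM or more. These are comparisons of single libraries and have no replicate check. Among the 10, female library 1 was the highest female library in PARRI_0002748.t1, PARRI_0004127.t1, PARRI_0005340.t1, PARRI_0007608.t1 and PARRI_0012347.t1, and female library 2 in PARRI_0009335.t1, PARRI_0014150.t1, PARRI_0016101.t1 and PARRI_0017610.t1. Of the first 5 only PARRI_0012347.t1 had no overlap between the sexes, and the 4 of the second had none. The highest female library itself enters the overlap, and no share of all tested transcripts is given for either group. Nothing is read from this split. Whether the female pools differed in age, reproductive stage or condition is not given, and its part in these values was not tested.

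**Figure D3:**
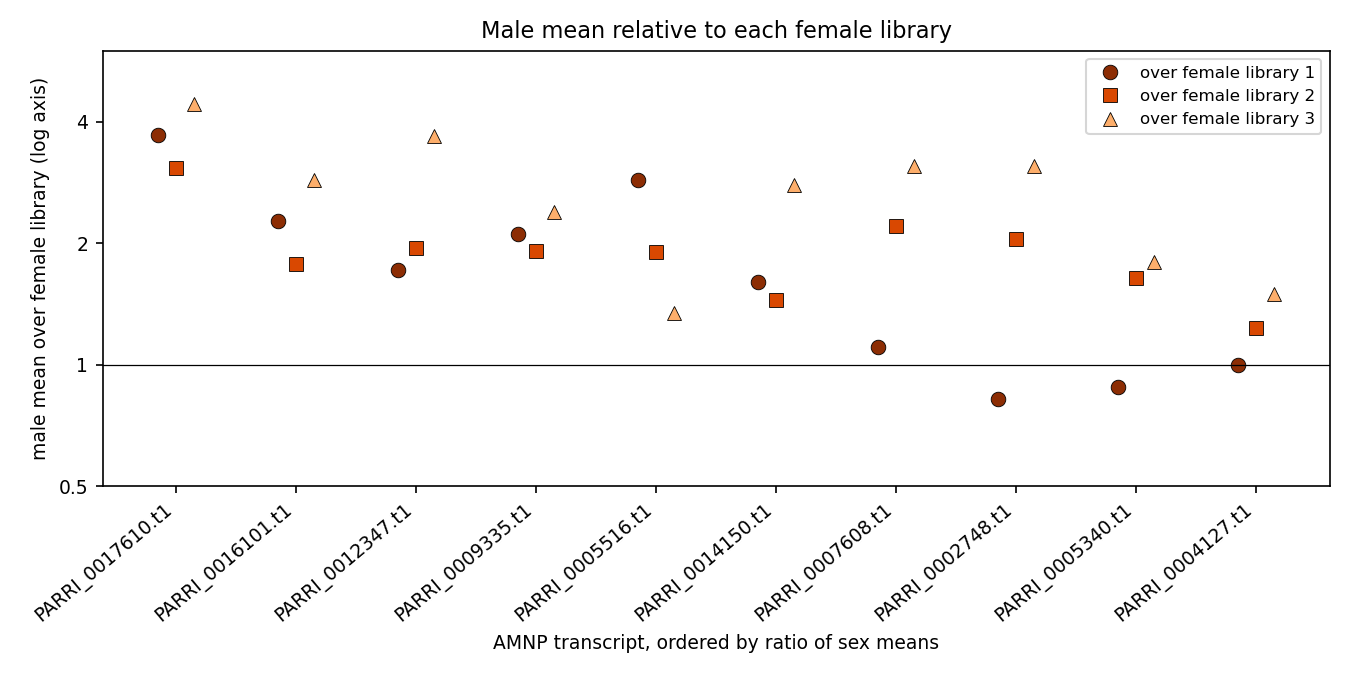
Mean of the 4 male libraries over each female library, on a log axis, for the 10 AMNP transcripts ordered by the ratio of sex means. Over female library 1 the ratio is below 1 for PARRI_0002748.t1 (0.821), PARRI_0005340.t1 (0.881) and PARRI_0004127.t1 (0.997), while over female library 3 it lies between 1.34 and 4.42 for all 10.

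The ratio of the male mean to a female library therefore depended on the library. For PARRI_0002748.t1 it was 0.821, 2.04 and 3.11 over female libraries 1 to 3, for PARRI_0005340.t1 0.881, 1.64 and 1.79, and for PARRI_0004127.t1 0.997, 1.23 and 1.49. It was the least dependent for PARRI_0009335.t1, at 2.10, 1.91 and 2.39, and for PARRI_0017610.t1, at 3.70, 3.07 and 4.42. For PARRI_0005516.t1 the order was the opposite, with 2.87, 1.90 and 1.34.

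Among males, library 1 was the highest male library in 6 of the 10 transcripts and in 9 of the 24 other AMNP transcripts, against 19.7% of all tested transcripts. Male library 1 was 1.72-fold above the mean of the other males for PARRI_0002748.t1, 1.70-fold for PARRI_0009335.t1 and 1.23-fold for PARRI_0004127.t1, but 0.724-fold for PARRI_0017610.t1, where it was the lowest male library. On the log2 scale, the SD among females was above that among males in 7 of the 10 transcripts, against 69.3% of all tested transcripts. The exceptions were PARRI_0009335.t1, PARRI_0005516.t1 and PARRI_0017610.t1. The median SD on the log2 scale was 0.321 among males and 0.516 among females for the 10, against 0.426 and 0.627 for all tested transcripts.

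Because a ratio of 2 transcripts within a library does not depend on the scaling of that library, the 4 members with an AMNP transcript at the next locus number were also set against it. PARRI_0012347.t1 is a minor transcript beside PARRI_0012348.t1, which had 1916, 2828, 1886 and 3760.0 TPM in male libraries 1 to 4, against 3677, 1884 and 1033 TPM in female libraries 1 to 3. The ratio of PARRI_0012347.t1 to PARRI_0012348.t1 was 0.0649, 0.0433, 0.0685 and 0.0360 in male libraries 1 to 4, against 0.0202, 0.0349 and 0.0336 in female libraries 1 to 3. The sexes did not overlap, by the narrow margin between male library 4 and female library 2. Relative to PARRI_0012349.t1, at 2 locus numbers, the ratio lay between 0.105 and 0.167 in males and between 0.0555 and 0.107 in females, with a slight overlap.

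PARRI_0007608.t1 was set against PARRI_0007607.t1, which had 648, 564, 565 and 639 TPM in male libraries 1 to 4, against 621, 637 and 871 TPM in female libraries 1 to 3. The neighbour was highest in female library 3, where PARRI_0007608.t1 was lowest. The ratio of PARRI_0007608.t1 to PARRI_0007607.t1 was 0.308, 0.217, 0.314 and 0.279 in male libraries 1 to 4, against 0.247, 0.121 and 0.0625 in female libraries 1 to 3. Only male library 2 and female library 1 crossed.

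PARRI_0016101.t1 lies between PARRI_0016100.t1 and PARRI_0016102.t1 in number and differed from both in its male profile, being lowest in male library 3, where both neighbours were highest. PARRI_0016100.t1 had 495, 200.4, 528 and 154 TPM in male libraries 1 to 4, against 267, 212 and 174 TPM in female libraries 1 to 3, so that the sexes overlapped. The ratio of PARRI_0016101.t1 to PARRI_0016100.t1 lay between 0.0915 and 0.412 in males and between 0.102 and 0.164 in females. Its ratio to PARRI_0016102.t1 lay between 0.348 and 0.902 in males and between 0.210 and 0.473 in females. Both ratios were lowest among males in library 3 and overlapped between the sexes. PARRI_0016103.t1, at 2 locus numbers, had 37.2, 22.7, 24.8 and 31.8 TPM in male libraries 1 to 4, against 6.30, 17.7 and 21.1 TPM in female libraries 1 to 3. The second transcript of that locus, PARRI_0016103.t2, had 14.8, 11.3, 24.4 and 21.6 TPM in male libraries 1 to 4, against 38.2, 16.1 and 0 TPM in female libraries 1 to 3. Female library 1 was thus the lowest library for PARRI_0016103.t1 and the highest for PARRI_0016103.t2, so PARRI_0016103.t1 alone does not describe the locus.

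PARRI_0005340.t1 and PARRI_0005341.t1 had similar ratios in the sexes, between 1.36 and 3.35 in males and between 1.45 and 1.88 in females, with the male values spread to both sides of the female ones. PARRI_0005341.t1 itself had 214, 56.3, 230 and 130 TPM in male libraries 1 to 4, against 164, 112 and 104 TPM in female libraries 1 to 3, and male library 2 was the lowest male library in both transcripts. PARRI_0005342.t1, at 2 locus numbers, was the weakest of these, between 2.75 and 38.5 TPM in males and between 2.68 and 6.26 TPM in females. PARRI_0004129.t1, the neighbour of PARRI_0004127.t1, was at 0.187 TPM in male library 2, at 0.226 TPM in female library 2 and at 10.9 TPM in female library 3. The remaining libraries had 0, so no ratio was formed.

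**Figure D4:**
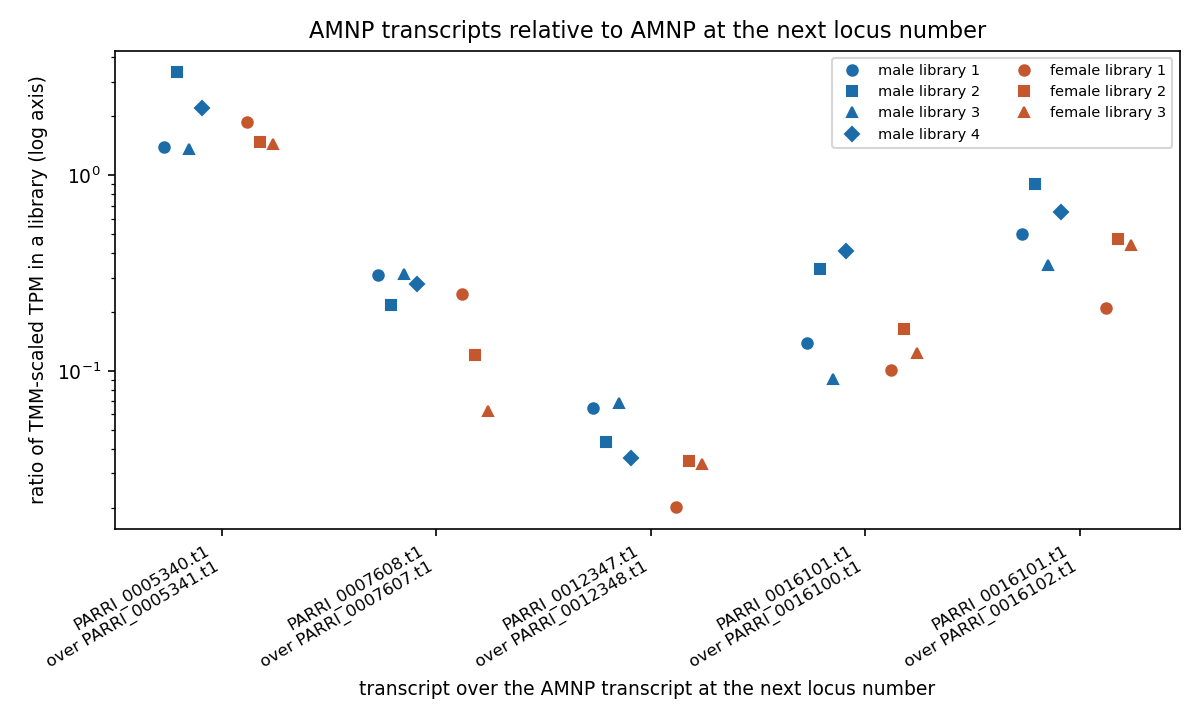
Ratio of TMM-scaled TPM within each library, on a log axis, of an AMNP transcript to the AMNP transcript at the next locus number, for male libraries (blue, left) and female libraries (orange, right). Male and female libraries are apart for PARRI_0012347.t1 over PARRI_0012348.t1 (0.0360 to 0.0685 in males, 0.0202 to 0.0349 in females) and overlap in the other 4 ratios.

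The profile of each transcript over the 7 libraries, centred on the log2 scale, was compared with those of the 33 other tested AMNP transcripts by the root mean square difference, in log2 units. The closest pair was PARRI_0007608.t1 with PARRI_0005098.t1, at 0.144, and PARRI_0005098.t1 was also the nearest to PARRI_0002748.t1, at 0.244. PARRI_0005098.t1 had 286, 207, 214 and 268 TPM in male libraries 1 to 4, against 239, 105 and 83.9 TPM in female libraries 1 to 3, so that female library 1 was within the male range. As it was picked for its near profile, this likeness follows from the choice. PARRI_0009335.t1 was nearest to PARRI_0003560.t1, at 0.157, and PARRI_0012347.t1 to PARRI_0013908.t1, at 0.165. PARRI_0005340.t1 was nearest to PARRI_0016102.t1 (0.185) and PARRI_0004127.t1 to PARRI_0017350.t1 (0.230). PARRI_0014150.t1, PARRI_0016101.t1 and PARRI_0017610.t1 all had PARRI_0012347.t1 as nearest, at 0.189, 0.271 and 0.453. PARRI_0005516.t1 stood farthest from the family, with PARRI_0016103.t1 as nearest at 0.518. The nearest AMNP transcript was at the next locus number for none of the 4 transcripts that have such a neighbour.

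Among all tested transcripts averaging 10 TPM or more, whatever their annotation, closer profiles were found for each of the 10. This pool is far larger than the 33 AMNP transcripts, so a closer nearest profile was likely from its size alone. The median distance went the other way and was smaller to the AMNP transcripts for each of the 10, at 0.486 for PARRI_0012347.t1. PARRI_0012347.t1 was nearest to PARRI_0017033.t1, at 0.0715, against a median of 1.11 over the 10676 transcripts compared. PARRI_0016101.t1 was nearest to PARRI_0010507.t1, at 0.0847, PARRI_0009335.t1 to PARRI_0001457.t1, at 0.0942, and PARRI_0017610.t1 to PARRI_0018147.t1, at 0.171. A nearest profile among so many transcripts measured in 7 libraries describes these libraries only.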

How the data were processed

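Poly A-selected libraries of P. metropolitanus were sequenced from 4 pools of males and 3 pools of females. The authors mapped the reads to predicted coding sequences, quantified them with RSEM 1.3.3 and deposited TMM-rescaled TPM, a normalized signal that keeps no counts. The deposited table of the authors' DESeq2 1.38.0 comparison holds mean normalized counts per sex, used here only to describe depth as the authors' mean signal, and fold changes and p-values, which were not used. The genome build of the gene models is not given in the sources used here, and none of the 24899 gene identifiers was found in the RefSeq gene table, so no coordinates or sequences are given.

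Values were transformed to log2(TPM + 0.1) and fitted against sex by limma 3.58.1 (R 4.3.3), using a trended prior and two-sided tests, for transcripts with at least 1 TPM in at least 3 of the 7 libraries, with Benjamini-Hochberg adjustment over all of them. The offset understates differences of weakly expressed transcripts. Ratios are of group means without an offset. Counting SDs are 100 over the square root of a mean count and cover counting error only. Precision otherwise is the SD between libraries. Other values were computed with Python 3.11.15, pandas 2.3.3, NumPy 2.4.6 and matplotlib 3.10.9. Alternatives were an offset of 1, no filter, a mean of at least 5 TPM, quantile normalization, libraries rescaled to a common total, an untrended prior, a replicate block, a summed locus and leaving out each library. All 10 members were named, with AMNP transcripts within 2 locus numbers, those of the same locus and the nearest profiles. The members and lists were chosen with earlier results of these data known. The other AMNP transcripts named as called were named after their values were seen.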

Additional observations from a re-analysis of the deposited data

Results flagged for a closer look

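For each of the 10 transcripts, the gap between the extreme male library and its nearest neighbour was divided by the range of the 4 males and compared with Dixon's 95% critical value. Chance marks about 1 in 20 such groups. Male library 1 exceeded the value in 2 of the 10. The 10 share the same 4 male libraries and are not independent groups, and the share of all transcripts so marked is not given. The count is therefore not read as an excess. PARRI_0002748.t1 had 50.0 TPM there, against 28.1 to 30.7 TPM in the other male libraries, a gap of 0.880 of the range. PARRI_0004127.t1 had 297 TPM there, against 238 to 246 TPM in the other male libraries, a gap of 0.869 of the range. Without male replicate 1 the log2 difference between the sexes was 0.55 for PARRI_0002748.t1 and 0.21 for PARRI_0004127.t1.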

How the results depend on the processing

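Of the 149 values of the 10 transcripts under the alternatives, 132 had the same direction and stayed on one side of the FDR threshold, 14 kept their direction but no longer passed, and 2 newly passed. The log2 difference of PARRI_0005516.t1 turned to -0.27 under quantile normalization, and it could not be fitted with a mean of at least 5 TPM. The median of the 10 minus that of all transcripts was 0.43, and 0.92 both with a mean of at least 5 TPM and under quantile normalization, where the median of all moved to near 0. With each library left out it lay between 0.40 and 0.58. Of the 24 other AMNP transcripts, 3 passed as deposited, 6 under quantile normalization, 1 with an untrended prior and between 0 and 10 with each library left out, all higher in males, where 25.3%, 18.8%, 25.5% and between 17.1% and 30.8% of all transcripts passed higher in males. The cause was not tested. Without a filter PARRI_0009335.t1 no longer passed (limma FDR 0.053), and under quantile normalization PARRI_0014150.t1 did not (limma FDR 0.076). With the replicate block 3 of the 10 passed, PARRI_0009335.t1 and PARRI_0014150.t1 being lost, and 20.2% of all transcripts passed higher in males. Whether equal numbers pair the samples is not given in the labels. The deviations of same-numbered libraries correlated at -0.013, 0.028 and 0.25. Those of differently numbered libraries correlated at between -0.26 and 0.26, so these correlations cannot decide it. With each library left out, between 3 and 6 of the 10 passed, all higher in males, where between 17.1% and 30.8% of all transcripts passed higher in males. In either direction between 6260 and 10490 of all transcripts passed. PARRI_0009335.t1 and PARRI_0014150.t1 each missed the threshold in 5 of the 7 such fits, with log2 differences of 0.81 to 1.09 and 0.60 to 0.93 in those fits. TPM keep no depth, so counting error cannot be read from them. It weighs most on the lowest levels, PARRI_0005516.t1 above all, and its part in the spread between libraries was not tested.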
